A study of Mus musculus with 9 samples.

Results

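The genes examined here are the members of the bone morphogenetic protein (BMP) and transforming growth factor beta (TGF-beta) pathway whose symbols name them as such: Bmp, Gdf, Inhb and Tgfb ligands, Bmpr, Acvr and Tgfbr receptors with the co-receptor Eng, the SMAD proteins and the latent TGF-beta binding proteins (Ltbp). They were matched by symbol alone, and 49 of the 23018 genes in the count table matched. This choice was made with earlier results of these data known, so shares of all genes set beside member counts are no test. By role there were 19 ligands, 14 receptors, 8 SMADs, 4 latency proteins and 4 further genes that share the spelling but act elsewhere or at the pathway's margin. The libraries were made from lymphatic endothelial cells (LECs), the cells that line lymphatic vessels, sorted by flow cytometry as CD45-CD31+PDPN+ cells from 3 tissues. The groups were meninges (3 libraries), diaphragm (3 libraries) and skin (3 libraries), all from untreated, wild type, male C57/Bl6 mice at 10 weeks of age. Nothing in the labels ties a library to its own animal or gives a number of animals, so p-values measure the spread between these libraries, which may be technical.

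In this pathway a dimeric ligand binds a pair of type II and type I receptor kinases, and the type I receptor phosphorylates a receptor-regulated SMAD. SMAD1, SMAD5 and SMAD9 carry BMP signals, SMAD2 and SMAD3 carry TGF-beta and activin signals, SMAD4 is their common partner, and SMAD6 and SMAD7 are inhibitory. TGF-beta is secreted in a latent complex held by LTBP proteins in the matrix, and in the mouse the endothelial receptor ALK1 (Acvrl1) with its ligand BMP9 is needed for lymphatic valve formation.

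Total counts were 26075366 to 34592850 per library, and levels are given as counts per 1000000 counts (CPM) of the library size after TMM scaling. LEC markers (7 of 7 detected in every tissue, among them Prox1, Flt4, Lyve1, Pdpn and Pecam1) summed to 6345 to 15132 CPM in meninges, 13809 to 19732 CPM in diaphragm and 19682 to 20453 CPM in skin, so the sorted identity was present in all 9 libraries. Meninges replicates 2 and 3 stood apart. Their 8 fibroblast markers summed to 7874 and 8115 CPM, against 1884 CPM in meninges replicate 1, 1441 to 1743 CPM in diaphragm and 586 to 1509 CPM in skin, with no marker at 0 in any tissue. Col1a1 and Col1a2 made up the larger part of this sum in each meninges library. Dpt was 1.75 to 2.84 CPM in meninges and 71.2 to 105 CPM in diaphragm. Thy1 was 576, 174 and 559 CPM in meninges replicates 1 to 3. The remaining markers were higher in replicates 2 and 3 than in replicate 1. The 7 mural markers of meninges replicates 2 and 3 summed to 993 and 1017 CPM, against 306 CPM in meninges replicate 1, 271 to 490 CPM in diaphragm and 0.697 to 179 CPM in skin, where Des was at 0. Of these Notch3 and Des had their highest mean in diaphragm. The 7 bone and cartilage markers summed to 184, 992 and 674 CPM in meninges replicates 1, 2 and 3, against 2.21 to 3.65 CPM in diaphragm and 0.271 to 95.1 CPM in skin. Of these Col2a1 was at 0 in meninges, Bglap, Ibsp and Col2a1 in diaphragm, and Sp7, Bglap and Ibsp in skin. The diaphragm libraries carried more of the 6 skeletal muscle markers (17.1 to 35.9 CPM in meninges, 384 to 920 CPM in diaphragm, 80.8 to 269 CPM in skin), of the 5 mesothelial markers (0 to 15.1 CPM, 36.7 to 1157 CPM and 0 to 0.0387 CPM in the same order) and of the 5 leukocyte markers in the table (4.04 to 11 CPM, 35.9 to 125 CPM and 0.0774 to 11.7 CPM). The leukocyte sum rested mainly on Cd68 (32.3 CPM) in diaphragm replicate 1 and on Ptprc (118 CPM) in replicate 2. In replicate 3 it rested on Cd3e (19.9 CPM) and Cd79a (16.2 CPM), and mean Csf1r was not higher in diaphragm. The 6 blood endothelial markers summed to 1152 to 2398 CPM in meninges, 1467 to 1612 CPM in diaphragm and 1165 to 1389 CPM in skin, a sum whose members went in opposite directions. In meninges over skin Plvap, Aqp1 and Esm1 passed the edgeR test as higher (adjusted p 0.00743, 0.00257 and 0.0181), Emcn passed as lower (adjusted p 0.0343), and Kdr and Cldn5 did not pass; Plvap also passed as higher in meninges over diaphragm (adjusted p 0.0449). Of the other lists, Col3a1, Notch3, Runx2 and Alpl passed as higher and Lyve1 as lower in meninges over skin, and Runx2 and Alpl as higher and Pax7, Ttn and Muc16 as lower in meninges over diaphragm. The part of these cell types in the results below was not tested, and in sorted bulk RNA fewer cells of a type and less RNA per cell cannot be told apart.

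Of the 49 members, 41 had enough counts to be tested. No member passed edgeR's quasi-likelihood test at a Benjamini-Hochberg adjusted p of 0.05 over all 14831 genes tested, in any of the 3 comparisons of tissues. The share of all genes called by the same test was 0.344% in meninges over diaphragm (51 genes), 1.32% in meninges over skin (196 genes) and 0.0405% in diaphragm over skin (6 genes). At an unadjusted p of 0.05, 9 of the 41 members differed in meninges over diaphragm, 8 higher and 1 lower, where 10.1% of all genes did, 6.01% higher and 4.05% lower. For meninges over skin there were 12, of them 11 higher and 1 lower, where 13.8% of all genes did, 8.93% higher and 4.9% lower. For diaphragm over skin there were 7, of them 5 higher and 2 lower, where 11.8% of all genes did, 6.82% higher and 4.97% lower. The lowest adjusted p of a member was 0.213 for Bmp7 in meninges over diaphragm, 0.0645 for Ltbp1 in meninges over skin and 0.201 for Ltbp1 in diaphragm over skin.

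DESeq2's Wald test on the same counts called 4 members in meninges over diaphragm (Bmp7, Gdf11, Bmp5 and Smad6, all higher in meninges), against 4.25% of all genes, 2.75% higher and 1.5% lower. In meninges over skin it called 7 (Ltbp1, Bmp7, Tgfb3, Gdf10, Smad9, Smad6 and Inhbb, all higher in meninges), against 7.5% of all genes, 5.13% higher and 2.37% lower. In diaphragm over skin it called 6 (Ltbp1, Bmp4, Smad9 and Inhbb higher in diaphragm, Gdf11 and Bmp5 lower in diaphragm), against 5.5% of all genes, 3.48% higher and 2.02% lower. The voom method of limma with quality weights called 3 members in meninges over diaphragm, Bmp7, Gdf11 and Bmp3, all higher in meninges, against 1.35% of all genes (0.762% higher, 0.587% lower). In meninges over skin it called 2, Bmp3 and Inhbb, both higher in meninges, against 2.79% of all genes (1.71% higher, 1.08% lower), and in diaphragm over skin 0, against 0.00674%. The median log2 difference over the 41 members was 0.20 in meninges over diaphragm (23 positive, 18 negative), where the median over all tested genes was 0.05. It was 0.42 in meninges over skin (25 positive, 16 negative; all genes 0.08) and 0.17 in diaphragm over skin (22 positive, 18 negative; all genes 0.01). The median standard error of a member's log2 difference was 0.76 in each comparison.

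**Figure D1:**
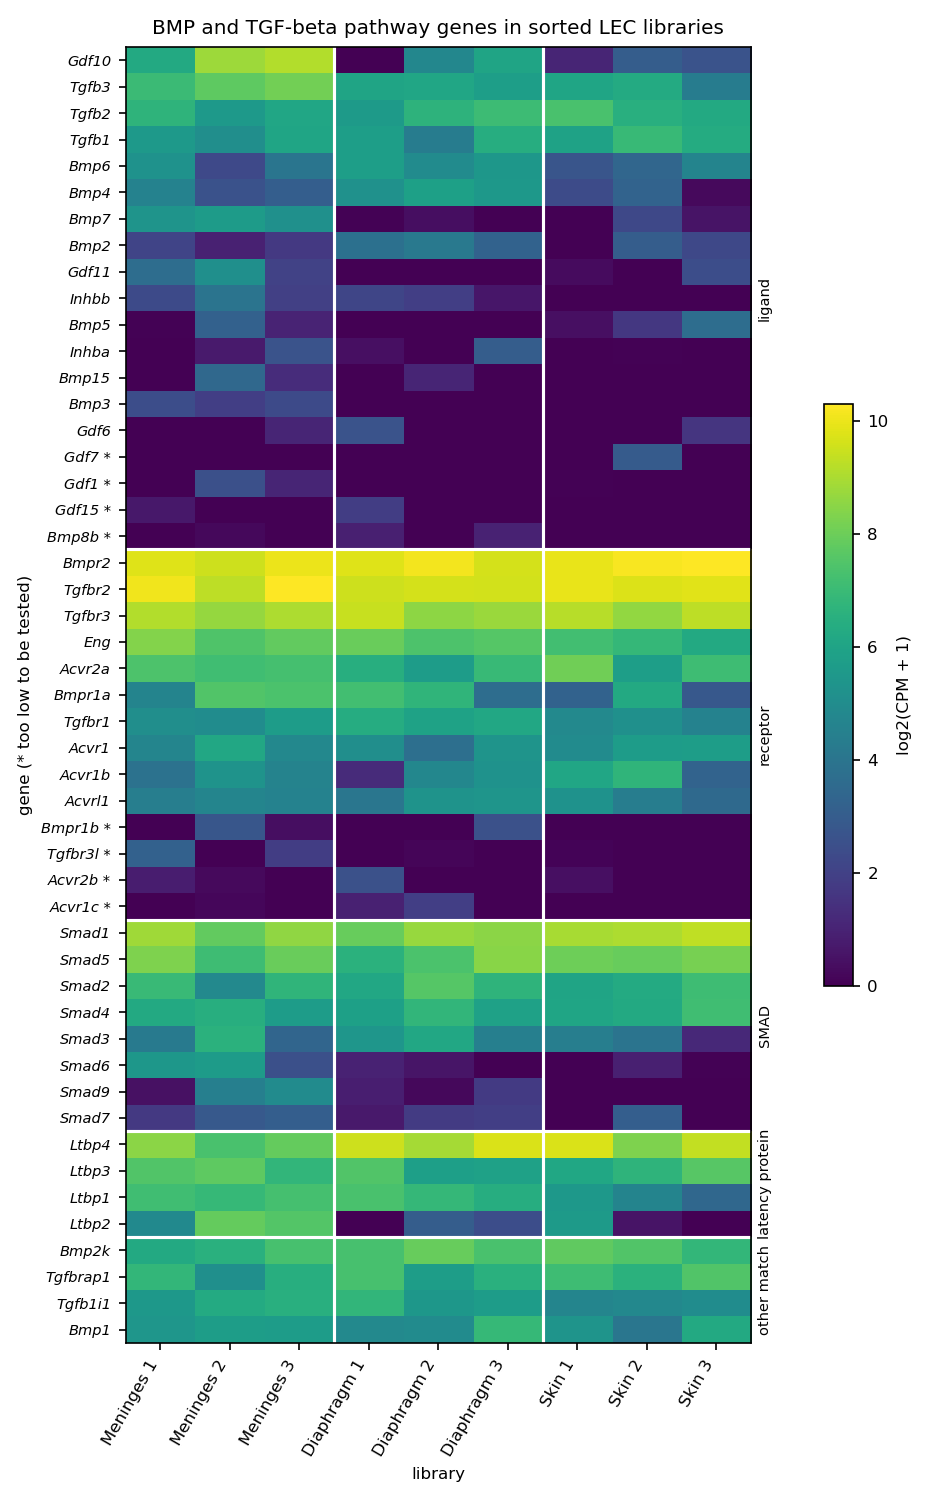
Level of each of the 49 members in each of the 9 libraries, as log2(CPM + 1), with columns in the order meninges, diaphragm and skin and rows grouped by role. An asterisk marks the 8 members with too few counts to test, and Tgfbr2, Bmpr2, Tgfbr3 and Smad1 are bright in every library, while Gdf10, Bmp7, Smad6 and Ltbp2 have their highest mean in meninges.

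A subset of members had all 3 libraries of a tissue on the same side of all 6 others, a description made after the values were seen. The 3 meninges libraries were the highest for Bmp7, Tgfb3, Gdf10, Bmp3 and Smad6 (5 members; 4.59% of all tested genes had this pattern), and no member was lowest there (2.16% of genes). In diaphragm Tgfbr1, Bmp4 and Bmp2 were highest (3 members; 1.96% of genes) and Bmp5 was lowest (1 member; 1.42%). The Bmp5 pattern rested on 1 count in meninges replicate 1. In skin Smad1 was highest (1 member; 2.29%) and Ltbp1, Eng, Smad9, Tgfb1i1 and Inhbb were lowest (5 members; 3.31%). Taken by pair, the libraries did not overlap for 9 members higher in meninges than in diaphragm (10.4% of genes), 4 lower in meninges than in diaphragm (6.7%), 10 higher in meninges than in skin (12.9%), 1 lower in meninges than in skin (7.34%), 10 higher in diaphragm than in skin (7.54%) and 3 lower in diaphragm than in skin (5.95%). Comparisons that share a tissue share its 3 libraries.

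**Figure D2:**
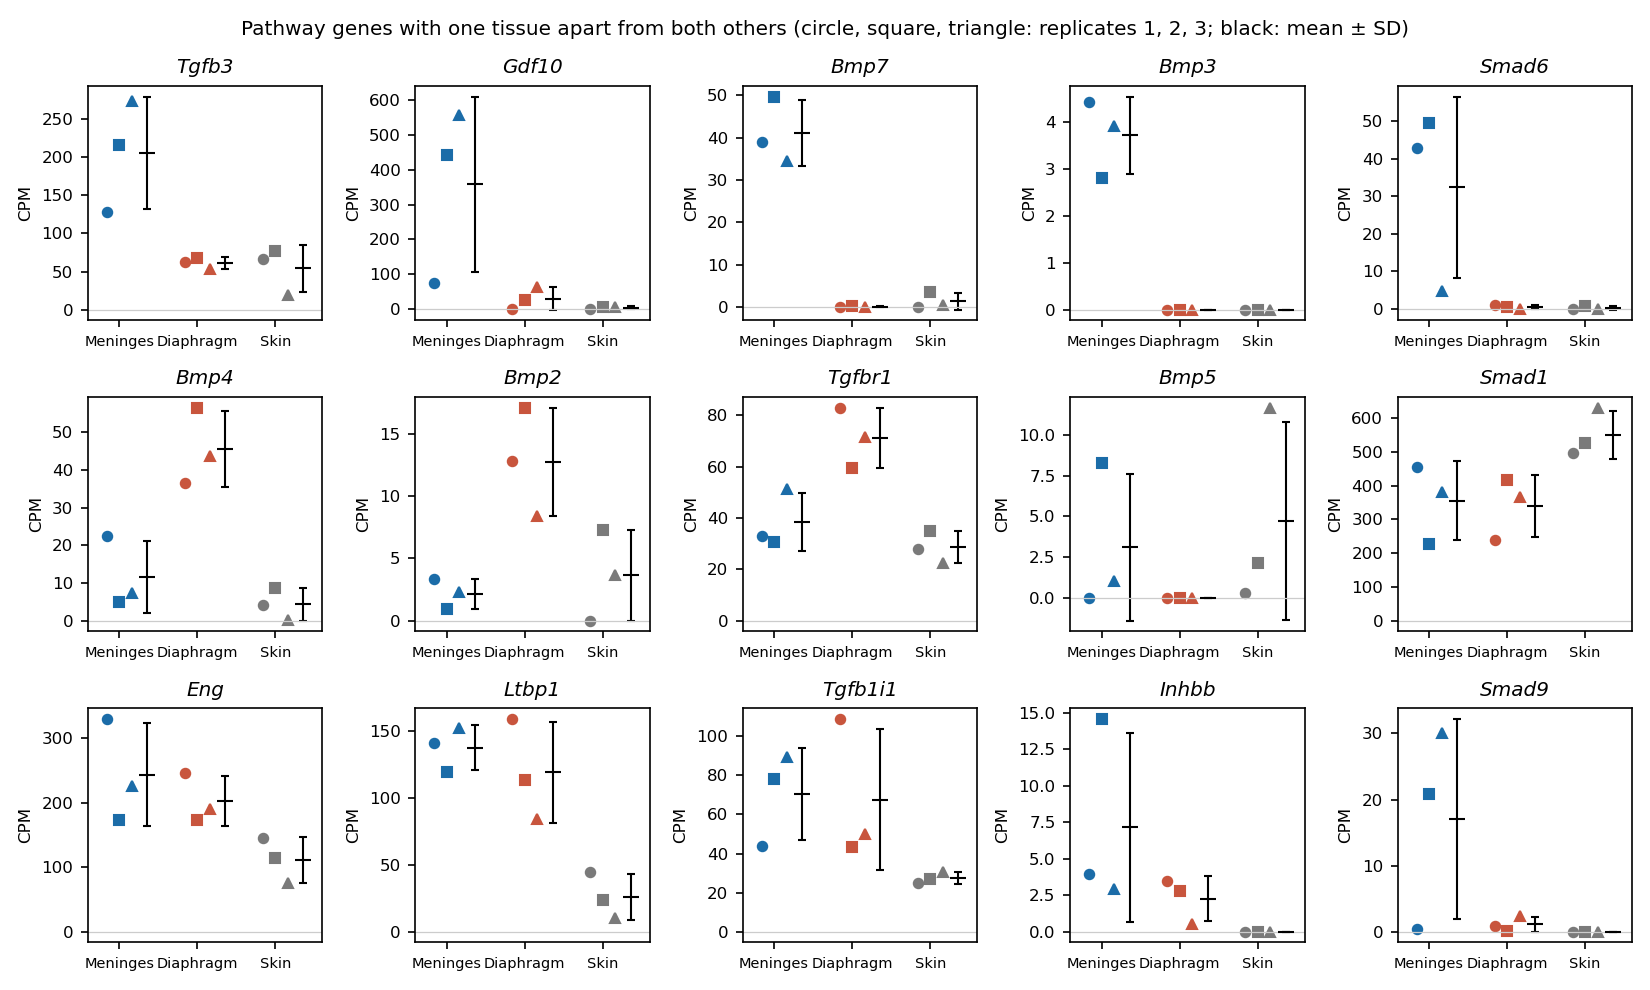
Levels in CPM on a linear axis for members whose 3 libraries of one tissue lay above or below all 6 others; circles, squares and triangles are replicates 1, 2 and 3 and black marks are the mean ± SD of 3 libraries. Bmp7 lies at 34.5 to 49.7 CPM in meninges and below 4 CPM elsewhere, and Eng at 173 to 330 CPM in meninges, 173 to 246 CPM in diaphragm and 75.3 to 146 CPM in skin.

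The sequences 250 bases upstream of the annotated start are shown for members that illustrate these patterns: Gdf10 and Smad6 for the meninges, Bmp4 for the diaphragm, and Eng and Ltbp1 for low levels in skin, Ltbp1 with its pair of annotated starts. They are RefSeq promoters of the mouse assembly GRCm38.p6, read 5′ to 3′ on the gene's strand: Gdf10 at chr14:33923337-33923586 (plus strand), Smad6 at chr9:64022060-64022309 (minus strand), Bmp4 at chr14:46390670-46390919 (minus strand), Eng at chr2:32646345-32646594 (plus strand), and Ltbp1 at chr17:75005279-75005528 and chr17:75178531-75178780 (plus strand). Capitals mark the SMAD box GTCTG and its complement CAGAC, the short element that SMAD3 and SMAD4 bind; the GC-rich element GGCGCC bound by SMAD1 and SMAD5 was searched too and had no match in these 6 windows.
Gdf10: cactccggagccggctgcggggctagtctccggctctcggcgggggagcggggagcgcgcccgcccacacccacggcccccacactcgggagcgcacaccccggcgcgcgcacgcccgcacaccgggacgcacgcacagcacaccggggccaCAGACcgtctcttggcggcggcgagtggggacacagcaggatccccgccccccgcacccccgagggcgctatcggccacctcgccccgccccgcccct
Smad6: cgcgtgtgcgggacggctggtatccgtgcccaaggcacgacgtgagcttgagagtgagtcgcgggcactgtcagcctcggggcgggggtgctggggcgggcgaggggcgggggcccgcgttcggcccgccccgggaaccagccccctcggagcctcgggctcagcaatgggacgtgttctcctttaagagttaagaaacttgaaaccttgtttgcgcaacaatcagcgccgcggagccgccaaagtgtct
Bmp4: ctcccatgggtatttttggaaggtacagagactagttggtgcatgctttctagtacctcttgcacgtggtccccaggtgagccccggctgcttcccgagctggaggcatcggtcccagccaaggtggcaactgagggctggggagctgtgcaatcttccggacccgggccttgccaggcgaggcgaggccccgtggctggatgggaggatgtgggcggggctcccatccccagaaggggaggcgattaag
Eng: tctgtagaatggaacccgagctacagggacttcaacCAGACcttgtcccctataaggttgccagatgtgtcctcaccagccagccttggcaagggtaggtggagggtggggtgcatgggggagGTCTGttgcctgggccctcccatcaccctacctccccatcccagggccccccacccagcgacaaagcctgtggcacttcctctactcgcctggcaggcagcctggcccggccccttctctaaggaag
Ltbp1 first start: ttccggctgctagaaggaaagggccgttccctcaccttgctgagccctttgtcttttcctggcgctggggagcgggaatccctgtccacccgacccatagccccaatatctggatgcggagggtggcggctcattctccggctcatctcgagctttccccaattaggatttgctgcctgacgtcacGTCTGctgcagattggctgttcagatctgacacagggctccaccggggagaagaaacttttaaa
Ltbp1 second start: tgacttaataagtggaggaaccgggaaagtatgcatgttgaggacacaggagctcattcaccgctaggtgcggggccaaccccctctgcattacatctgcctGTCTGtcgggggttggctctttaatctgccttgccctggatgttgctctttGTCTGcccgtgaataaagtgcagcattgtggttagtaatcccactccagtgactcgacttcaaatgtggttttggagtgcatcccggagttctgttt
Eng held 2 SMAD boxes, the second Ltbp1 window 2, the first Ltbp1 window 1 and Gdf10 1, while Smad6 and Bmp4 held none. A SMAD box on either strand occurred in 42.2% of all 32851 windows of the same length, and GGCGCC in 9.59%. Of the 49 members 37 had an entry, with 49 windows, of which 22 held a SMAD box and 10 held GGCGCC. A match is a match of letters only, and no binding was measured.

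Among the ligands, Tgfb3, Gdf10 and Bmp7 had higher mean levels in meninges than in either other tissue. TGF-beta 3 is a secreted ligand of the TGFBR1 and TGFBR2 receptors. Tgfb3 measured 128, 216 and 273 CPM in meninges replicates 1 to 3, 62.9, 68.2 and 53.2 CPM in diaphragm, and 66.1, 77.5 and 19.0 CPM in skin. Every meninges library lay above every other library. Tgfb3 averaged 206 ± 73.2 CPM in meninges, 61.5 ± 7.62 CPM in diaphragm and 54.2 ± 31.0 CPM in skin (SD, n = 3 each). Its log2 difference was 1.74 (SE 0.55, adjusted p = 0.31 in edgeR) in meninges over diaphragm and 1.92 (SE 0.56, adjusted p = 0.135 in edgeR) in meninges over skin. With meninges replicate 1 as the only meninges library these were 1.05 and 1.21.

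GDF10, also called BMP3B, is a divergent ligand of the family. Gdf10 measured 74.8, 443 and 557 CPM in meninges, 0, 26.5 and 63.7 CPM in diaphragm, and 1.08, 7.23 and 5.26 CPM in skin. The lowest meninges library was replicate 1, which still lay above all 6 others. Gdf10 averaged 358 ± 252 CPM in meninges, 30.1 ± 32 CPM in diaphragm and 4.52 ± 3.14 CPM in skin (SD, n = 3 each), and the log2 difference was 3.57 (SE 1.44, adjusted p = 0.406 in edgeR) in meninges over diaphragm and 6.31 (SE 1.64, adjusted p = 0.086 in edgeR) in meninges over skin. With meninges replicate 1 alone it was 1.31 and 4.02. Gdf10 passed the threshold in 5 of the 17 alternatives in meninges over skin and in 1 in meninges over diaphragm. The mean of meninges replicates 2 and 3 was 6.69 times replicate 1 for Gdf10, where the summed fibroblast markers differed 4.24 times; the part of fibroblast RNA in the Gdf10 level was not tested.

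BMP7 is a ligand that signals through SMAD1 and SMAD5 in many tissues. Bmp7 measured 38.9, 49.7 and 34.5 CPM in meninges, 0.0369, 0.303 and 0 CPM in diaphragm, and 0, 3.65 and 0.457 CPM in skin. Meninges libraries were all high and close to each other, and Bmp7 in diaphragm rested on 9 counts over the 3 libraries. The means were 41.0 ± 7.81 CPM in meninges, 0.113 ± 0.165 CPM in diaphragm and 1.37 ± 1.99 CPM in skin (SD, n = 3 each). Bmp7 had a log2 difference of 8.45 (SE 2.32, adjusted p = 0.213 in edgeR) in meninges over diaphragm and of 4.90 (SE 1.97, adjusted p = 0.281 in edgeR) in meninges over skin. Replicates 2 and 3 averaged 1.08 times replicate 1 for Bmp7, and with replicate 1 alone the log2 difference over diaphragm was 8.37. Meninges replicate 1 had the lowest fibroblast marker sum in meninges, 1884 CPM, and a bone and cartilage marker sum of 184 CPM. The part of those cells in the level of Bmp7 was not tested. Its adjusted p in meninges over diaphragm ran between 1.2e-05 and 1 over the 17 alternatives.

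Bmp3, a family member that opposes other BMPs, was read at 4.41, 2.81 and 3.91 CPM in meninges and at 0 in all 6 diaphragm and skin libraries. Against 3 counts over the 3 libraries, the floor used for a group at 0, Bmp3 was at least 101-fold higher in meninges than in diaphragm and at least 89.8-fold higher than in skin. Its adjusted p in edgeR was 0.324 over diaphragm and 0.201 over skin. Gdf11, a ligand of activin receptors, was read at 12.0, 33.7 and 3.04 CPM in meninges, 0 in all diaphragm libraries and 0.232, 0 and 4.39 CPM in skin. Gdf11 was at least 420-fold higher in meninges than in diaphragm (adjusted p = 0.266 in edgeR). Its meninges and skin libraries overlapped.

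Bmp4, Bmp2 and Bmp6, which bind BMP type I receptors, had their highest mean in diaphragm. Bmp4 measured 22.6, 5 and 7.51 CPM in meninges, 36.5, 56.5 and 43.8 CPM in diaphragm, and 4.10, 8.81 and 0.183 CPM in skin. All diaphragm libraries lay above all others, and the log2 difference was -1.96 (SE 1.25, adjusted p = 0.719 in edgeR) in meninges over diaphragm and 3.38 (SE 1.32, adjusted p = 0.371 in edgeR) in diaphragm over skin. Bmp2 was also highest in diaphragm, at a lower level, with 3.32, 0.937 and 2.27 CPM in meninges, 12.8, 17.1 and 8.42 CPM in diaphragm, and 0, 7.31 and 3.66 CPM in skin. Its adjusted p in edgeR was 0.826 in meninges over diaphragm and 0.807 in diaphragm over skin. Bmp6 averaged 18.4 ± 16.7 CPM in meninges, 42.3 ± 11.6 CPM in diaphragm and 13.2 ± 9.82 CPM in skin (SD, n = 3 each). Meninges replicate 1 reached 36.6 CPM of Bmp6 and overlapped the diaphragm range of 30.5 to 53.6 CPM.

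Bmp5, a close relative of Bmp7, went the other way in diaphragm: 0.0313, 8.28 and 1.06 CPM in meninges, 0 in each diaphragm library and 0.348, 2.15 and 11.7 CPM in skin. With counts pooled over the libraries of a tissue, it was at least 81.6-fold higher in meninges than in diaphragm, and at least 119-fold lower in diaphragm than in skin. Its adjusted p in edgeR was 0.353 and 0.335 in those comparisons. Meninges replicate 1 held 1 count of Bmp5, below the 0.0368 CPM that 3 counts give over the diaphragm libraries. Meninges replicate 2 held 265 of the 306 meninges counts, and skin replicate 3 held 255 of the 317 skin counts. Neither bound of Bmp5 holds for each library. Inhbb, which encodes the beta B subunit of activin, was read at 3.94, 14.6 and 2.91 CPM in meninges, 3.46, 2.80 and 0.537 CPM in diaphragm and 0 in each skin library. Inhbb was at least 167-fold higher in meninges and at least 54.2-fold higher in diaphragm than in skin (adjusted p 0.14 and 0.317 in edgeR), whereas meninges and diaphragm overlapped.

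The ligands Tgfb1 and Tgfb2 showed no such split. Tgfb1 averaged 48.2 ± 16.9 CPM in meninges, 52.4 ± 32.8 CPM in diaphragm and 87.0 ± 31.5 CPM in skin, and Tgfb2 72.2 ± 28.1 CPM in meninges, 93.3 ± 43.1 CPM in diaphragm and 108 ± 45.7 CPM in skin (SD, n = 3 each). The libraries of all 3 tissues overlapped for both. Inhba, the beta A subunit of activin, rested mainly on 1 library per tissue: its highest values were 5.18 CPM in meninges replicate 3, 7.16 CPM in diaphragm replicate 3 and 0.0406 CPM in skin replicate 2. Bmp15 reached 10.1 CPM in meninges replicate 2 and at most 1.45 CPM in any other library, and Gdf6 5.23 CPM in diaphragm replicate 1 and at most 2.01 CPM in any other library.

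Receptors made up 4 of the 6 most abundant members. Per kilobase of merged exons, a scale on which levels of different genes can be set side by side, the highest mean levels over the 9 libraries were those of Tgfbr2 (109 ± 23.5 CPM per kb), the latency protein Ltbp4 (79.1 ± 40.3), Tgfbr3 (77.6 ± 17.1), Smad1 (66.4 ± 20.9), Bmpr2 (54.6 ± 9.72) and Eng (45.9 ± 18.6). Tgfbr2 stood above Tgfbr3 by more than the SD of either, whereas Ltbp4, Tgfbr3 and Smad1 lay within their SDs of each other. The type I receptors were lower per kilobase: Bmpr1a 12.6 ± 11.2, Acvr1b 8.11 ± 7.47, Acvr1 7.87 ± 3.67, Tgfbr1 7.05 ± 3.24 and Acvrl1 5.95 ± 2.48 CPM per kb (SD over 9 libraries), with no neighbour in that order separated beyond its SD.

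Bmpr2, the type II receptor for BMPs, measured 890, 734 and 1014 CPM in meninges, 879, 1098 and 789 CPM in diaphragm, and 1002, 1171 and 1257 CPM in skin. Meninges and diaphragm overlapped fully and the skin libraries were on the high side. The log2 difference was -0.07 (SE 0.25, adjusted p = 0.988 in edgeR) in meninges over diaphragm and -0.38 (SE 0.25, adjusted p = 0.606 in edgeR) in meninges over skin. Tgfbr2, the type II receptor for TGF-beta, measured 1086, 620 and 1235 CPM in meninges, 727, 786 and 772 CPM in diaphragm, and 1004, 852 and 925 CPM in skin. The meninges libraries spanned both other tissues, and the diaphragm libraries lay below the skin libraries (log2 difference -0.28, SE 0.28, adjusted p = 0.782 in edgeR).

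Eng (endoglin, also CD105) is the co-receptor that presents BMP9 to ALK1 on endothelium. Eng measured 330, 173 and 226 CPM in meninges, 246, 173 and 190 CPM in diaphragm, and 146, 114 and 75.3 CPM in skin. All 6 meninges and diaphragm libraries lay above the 3 skin libraries. Its means were 243 ± 80.1 CPM in meninges, 203 ± 38.4 CPM in diaphragm and 112 ± 35.2 CPM in skin (SD, n = 3 each). For Eng the log2 difference was 1.12 (SE 0.40, adjusted p = 0.225 in edgeR) in meninges over skin and 0.86 (SE 0.40, adjusted p = 0.419 in edgeR) in diaphragm over skin. Among the blood endothelial markers, Plvap, Aqp1 and Esm1 were higher and Emcn was lower in meninges than in skin, with Plvap at 314, 117 and 212 CPM in meninges, 28, 13.7 and 22.9 CPM in diaphragm and 4.64, 14.2 and 13.4 CPM in skin. Aqp1 ran from 535 to 1180 CPM in meninges, from 369 to 595 CPM in diaphragm and from 30.5 to 103 CPM in skin; the part of blood endothelium in the Eng level was not tested. Acvrl1 (ALK1), its type I partner, measured 20.2, 24.6 and 22.9 CPM in meninges, 15.4, 38.3 and 39.9 CPM in diaphragm, and 36.8, 19.7 and 10.4 CPM in skin, and all tissues overlapped (adjusted p 0.905 or higher in the edgeR tests of Acvrl1).

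Tgfbr1 (ALK5), the type I receptor for TGF-beta, was highest in diaphragm, with 32.9, 30.8 and 51.3 CPM in meninges, 82.8, 59.4 and 71.3 CPM in diaphragm, and 28.1, 35.1 and 22.6 CPM in skin. All diaphragm libraries were above all others. The log2 difference was -0.89 (SE 0.62, adjusted p = 0.771 in edgeR) in meninges over diaphragm and 1.32 (SE 0.62, adjusted p = 0.428 in edgeR) in diaphragm over skin. The co-receptor Tgfbr3 (betaglycan) averaged 493 ± 76.4 CPM in meninges, 501 ± 167 CPM in diaphragm and 529 ± 123 CPM in skin (SD, n = 3 each). Acvr2a, a type II receptor for activins and BMPs, measured 173, 141 and 154 CPM in meninges, 86.1, 51.0 and 123 CPM in diaphragm and 268, 54.1 and 138 CPM in skin, so that meninges lay above diaphragm and skin overlapped both (adjusted p = 0.728 in edgeR for meninges over diaphragm).

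Bmpr1a (ALK3), a type I receptor for BMPs, varied widely within each tissue, with 24.1, 181 and 164 CPM in meninges, 142, 105 and 11.7 CPM in diaphragm, and 8.32, 76.0 and 6.21 CPM in skin. High and low libraries occurred in every tissue. Acvr1 (ALK2) spanned 12.6 to 71.4 CPM and Acvr1b (ALK4) 1.40 to 107 CPM over the 9 libraries, without a tissue apart. The receptors Acvr1c, Acvr2b, Bmpr1b and Tgfbr3l stayed below 9 CPM in every library and were not tested.

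**Figure D3:**
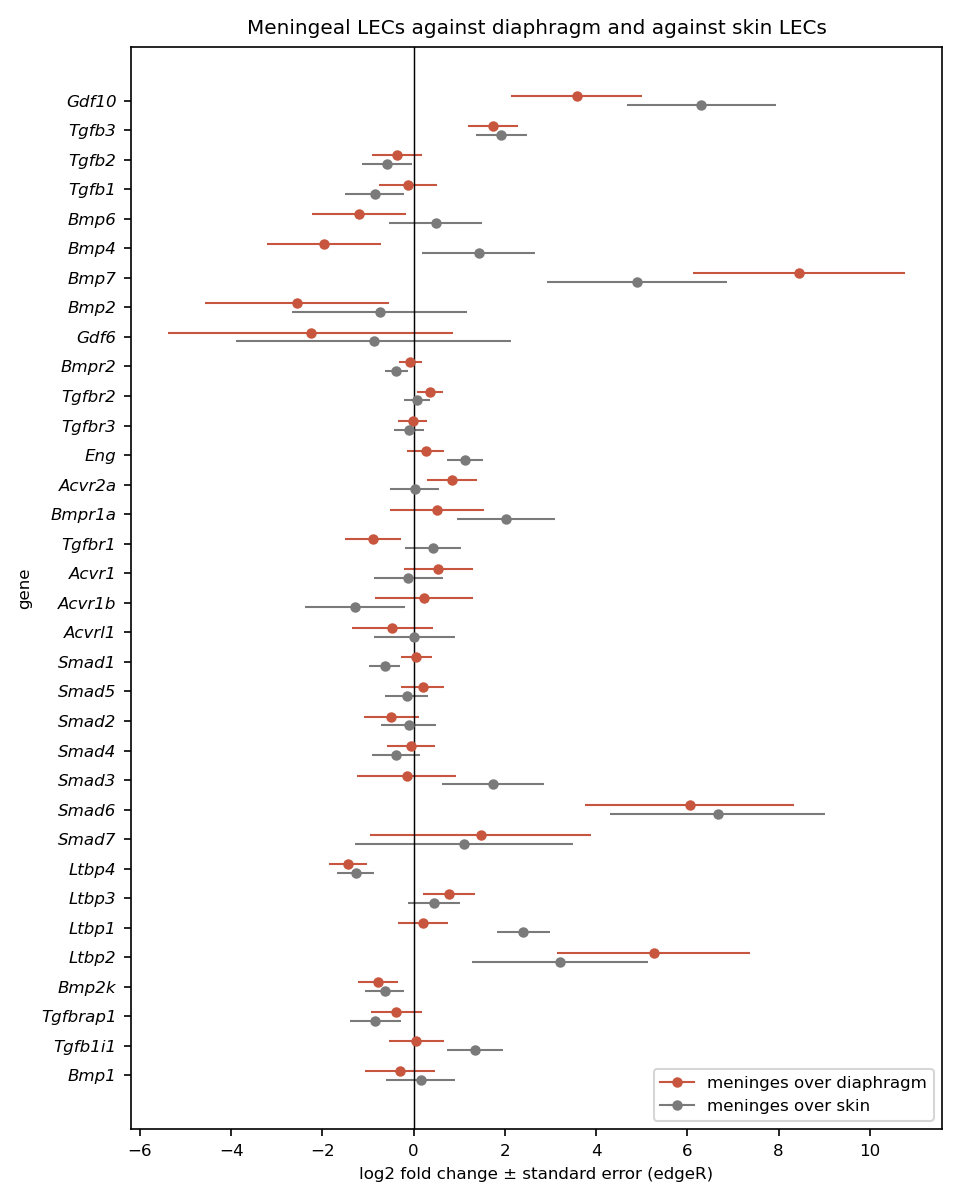
Log2 difference between tissues with its standard error for the 34 members with more than 3 counts in each tissue, in meninges over diaphragm (red) and meninges over skin (grey); points right of 0 are higher in meninges. Bmp7 and Smad6 lie far to the right in both meninges comparisons with long error bars, and Bmpr2, Tgfbr2 and Tgfbr3 lie near 0 with short ones.

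The SMADs split by abundance. Smad1 and Smad5, the BMP branch, were the highest SMADs by level in CPM per kilobase (66.4 ± 20.9 and 31.4 ± 11.6), followed by the common partner Smad4 (21.5 ± 7.75; SD over 9 libraries). Smad1 measured 456, 228 and 383 CPM in meninges, 239, 417 and 366 CPM in diaphragm, and 496, 525 and 631 CPM in skin. All skin libraries were above all others, by a log2 difference of -0.63 (SE 0.34, adjusted p = 0.471 in edgeR) in meninges over skin and -0.69 (SE 0.34, adjusted p = 0.447 in edgeR) in diaphragm over skin. Smad5 measured 320, 136 and 248 CPM in meninges, 93.6, 165 and 353 CPM in diaphragm, and 258, 235 and 287 CPM in skin, and the tissues overlapped.

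Smad6, the inhibitor of BMP receptor signalling, was read mainly in meninges. Its levels were 42.9, 49.4 and 4.68 CPM in meninges, 0.958, 0.492 and 0 CPM in diaphragm, and 0, 0.893 and 0.0457 CPM in skin, from 1371, 1580 and 177 counts in meninges, 26, 13 and 0 counts in diaphragm, and 0, 22 and 1 counts in skin. All meninges libraries were above all others, with replicate 3 the low one. For Smad6 the log2 difference was 6.05 (SE 2.29, adjusted p = 0.375 in edgeR) in meninges over diaphragm and 6.67 (SE 2.35, adjusted p = 0.221 in edgeR) in meninges over skin. With meninges replicate 1 alone it was 6.46 and 7.05, and the mean of replicates 2 and 3 was 0.63 times replicate 1.

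Smad9, the third SMAD of the BMP branch, measured 0.376, 20.8 and 30.0 CPM in meninges, 0.811, 0.151 and 2.33 CPM in diaphragm, and 0 in each skin library. Its high values were those of meninges replicates 2 and 3, the libraries with the high fibroblast, mural and bone marker sums, at 67.7 times replicate 1; the part of those cells in the Smad9 level was not tested. With counts pooled over the libraries of a tissue, Smad9 was at least 430-fold higher in meninges than in skin (adjusted p = 0.107 in edgeR). It was at least 26.9-fold higher in diaphragm than in skin (adjusted p = 0.341 in edgeR). Meninges replicate 1 held 12 of the 1814 Smad9 counts in meninges, and diaphragm replicate 3 held 65 of the 91 in diaphragm. Neither bound of Smad9 holds for each library. In meninges over diaphragm its log2 difference was 3.95 (SE 2.21, adjusted p = 0.637 in edgeR) and -1.54 with meninges replicate 1 alone. The remaining SMADs overlapped between meninges and the other tissues. Smad2 averaged 86.4 ± 51.5 CPM in meninges, 121 ± 61.5 CPM in diaphragm and 92.9 ± 39.5 CPM in skin, and Smad3 40.3 ± 46.7, 44.6 ± 25.5 and 12.0 ± 9.65 CPM in the same order (SD, n = 3 each). The 3 diaphragm values of Smad3 (20.8 to 71.5 CPM) lay above the 3 skin values (1.28 to 20.0 CPM). Smad7, the inhibitor of both branches, did not exceed 7.51 CPM in any library.

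The latency proteins gave the lowest adjusted p of any member. Ltbp1, which tethers latent TGF-beta to the matrix, measured 141, 120 and 152 CPM in meninges, 159, 114 and 84.6 CPM in diaphragm, and 44.5, 23.8 and 9.96 CPM in skin. All 6 meninges and diaphragm libraries lay above all 3 skin libraries. Ltbp1 averaged 138 ± 16.6 CPM in meninges, 119 ± 37.7 CPM in diaphragm and 26.1 ± 17.4 CPM in skin (SD, n = 3 each). The log2 difference was 2.40 (SE 0.58, adjusted p = 0.0645 in edgeR) in meninges over skin and 2.19 (SE 0.58, adjusted p = 0.201 in edgeR) in diaphragm over skin. In meninges over skin it ran between 1.98 and 3.02 over the 17 alternatives. Ltbp1 passed the threshold there in 4 of the 17. These were DESeq2, and edgeR without a low-count filter, with a replicate block and without skin replicate 1. With meninges replicate 1 alone the log2 difference was 2.41.

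Ltbp4, which in vessels and lung associates with elastic fibres, measured 360, 162 and 229 CPM in meninges, 730, 481 and 828 CPM in diaphragm, and 841, 313 and 656 CPM in skin. Meninges libraries were below all diaphragm libraries and overlapped skin. The log2 difference was -1.44 (SE 0.41, adjusted p = 0.244 in edgeR) in meninges over diaphragm and -1.27 (SE 0.41, adjusted p = 0.189 in edgeR) in meninges over skin; with meninges replicate 1 alone it was -0.92 and -0.77. Ltbp2, a matrix relative that does not bind latent TGF-beta, measured 28.5, 232 and 184 CPM in meninges, 0, 7.23 and 4.37 CPM in diaphragm, and 47.6, 0.447 and 0 CPM in skin. Its high libraries were again meninges replicates 2 and 3, at 7.29 times replicate 1, and skin replicate 1 lay above meninges replicate 1. Ltbp3, which also binds latent TGF-beta, measured 180, 215 and 108 CPM in meninges, 181, 54.5 and 58.4 CPM in diaphragm, and 68.5, 104 and 198 CPM in skin, with overlap between all tissues.

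**Figure D4:**
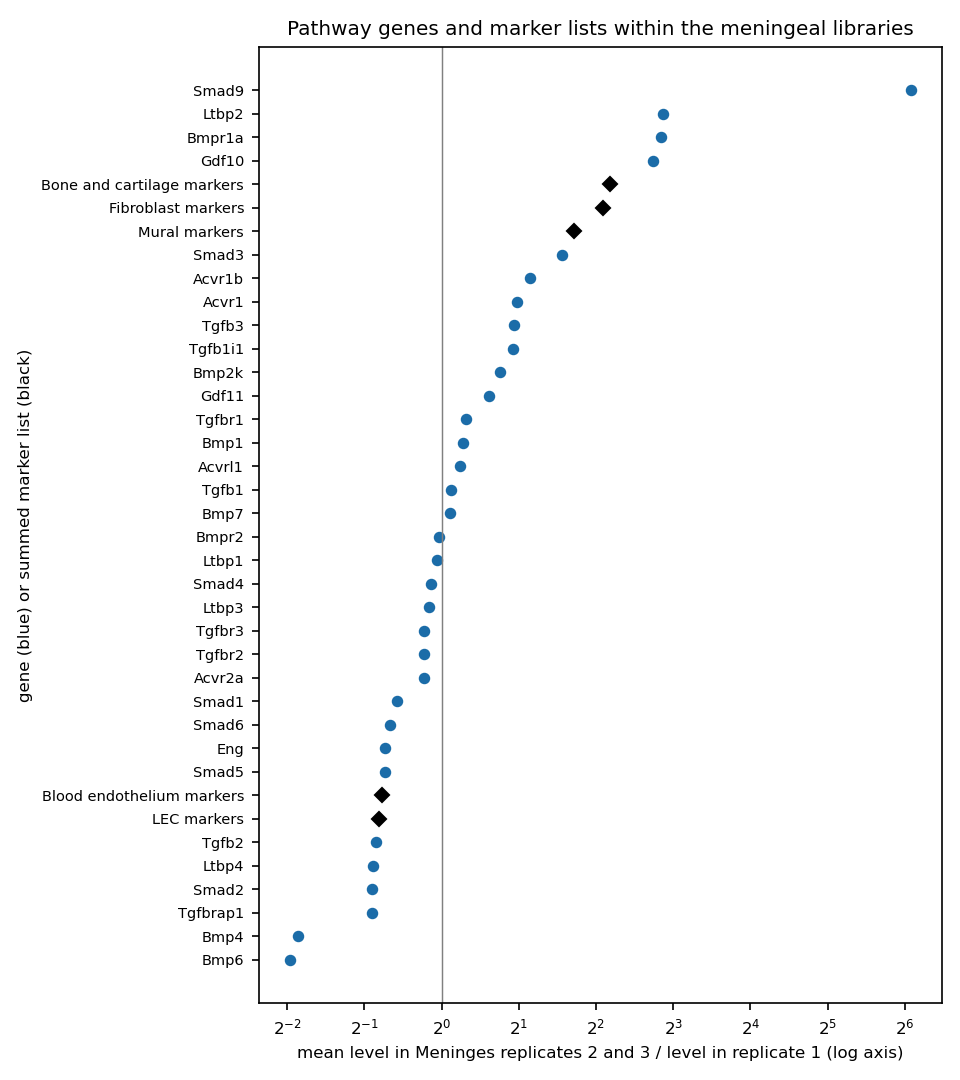
Ratio of the mean of meninges replicates 2 and 3 to replicate 1, on a log axis, for the 33 members at 10 CPM or more on average in meninges and, in black, for 5 marker lists. Smad9, Ltbp2, Bmpr1a and Gdf10 lie above the fibroblast markers at 4.24, while Bmp7, Bmpr2 and Ltbp1 lie near 1 and Bmp4 and Bmp6 below the LEC markers at 0.572.

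Within the meninges, the members followed the uneven libraries to different degrees. Of the 33 members at 10 CPM or more, 16 were higher in the mean of replicates 2 and 3 than in replicate 1, and 4 (Smad9, Ltbp2, Bmpr1a and Gdf10, at 67.7, 7.29, 7.15 and 6.69 times) exceeded the ratio of the summed fibroblast markers. The larger part of that sum was Col1a1 and Col1a2, and its members did not all share the ratio. The ratio was 1.91 for Tgfb3, 1.90 for Tgfb1i1, 1.08 for Bmp7, 0.982 for Bmpr2, 0.962 for Ltbp1, 0.604 for Eng and 0.541 for Ltbp4. The lowest of the BMP ligands were Bmp4 at 0.276 and Bmp6 at 0.256, where the LEC markers were at 0.572 and the blood endothelial markers at 0.584. These ratios come from 1 against 2 libraries and carry no test.

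The 4 further matches have other roles. Tgfb1i1 encodes Hic-5, a focal adhesion adaptor, and measured 44.0, 77.9 and 89.3 CPM in meninges, 109, 43.3 and 50.2 CPM in diaphragm, and 24.8, 27.2 and 30.8 CPM in skin. All skin libraries were below all others (log2 difference 1.35, SE 0.62, adjusted p = 0.348 in edgeR for meninges over skin, and 1.29, SE 0.62, adjusted p = 0.434 in edgeR for diaphragm over skin). Bmp2k, a kinase named for its induction by BMP2, measured 74.6, 93.1 and 159 CPM in meninges, 158, 241 and 163 CPM in diaphragm, and 217, 178 and 112 CPM in skin. Tgfbrap1, an endosomal protein that can bind the TGF-beta receptors, measured 112, 33.9 and 85.8 CPM in meninges, 158, 52.0 and 91.0 CPM in diaphragm, and 137, 94.1 and 183 CPM in skin. For Bmp2k and Tgfbrap1 meninges overlapped each other tissue, as it did for Bmp1, a procollagen protease, at 48.1 ± 5.30 CPM in meninges, 58.9 ± 51.8 CPM in diaphragm and 43.3 ± 29.9 CPM in skin (SD, n = 3 each).

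Untested ligands were Bmp8b, Gdf1, Gdf7 and Gdf15. Gdf7 was read only in skin replicate 2 (6.82 CPM), Gdf15 in meninges replicate 1 (0.595 CPM) and diaphragm replicate 1 (2.65 CPM), Gdf1 in meninges replicates 2 and 3 (4.72 and 1.08 CPM) and skin replicate 1 (0.0387 CPM), and Bmp8b at no more than 1 CPM. Over 3 libraries, 3 counts correspond to 0.0295 CPM in meninges, 0.0368 CPM in diaphragm and 0.0415 CPM in skin, so lower levels were not detectable; such limits cover counting error only, since amplified reads are not independent molecules. Merged exons of 19 of the 49 members overlap another gene, 4 of them on the same strand, in the GENCODE M21 annotation of GRCm38. No source used here gives the strand setting of the counting, so reads of Tgfb3 and its antisense neighbours Gm37804 and Gm48008, of Eng and Fpgs, of Bmp4 and Gm15217, of Bmp6 and Txndc5, of Bmpr1a and Gm17110 and of Acvrl1 and Gm16031 cannot be told apart. The same holds for Bmp8b with Ppie and Gm17244 on the opposite strand. Bmp8b also has a near-identical copy, a separate reason why its levels are uncertain.

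Other genes of the pathway, taken from a list of 69 extracellular modulators, co-receptors, intracellular regulators, targets and ligands not matched by symbol, were in part different between tissues. Of these 61 were in the table and 54 were tested. The list was chosen with earlier results of these data known, so the shares of all genes given beside its counts are no test of it. In meninges over diaphragm 3 passed the edgeR test (Thbs1 and Ctgf higher, Tgfbi lower), where 0.169% of all genes were called higher and 0.175% lower. In meninges over skin 3 passed (Thbs1 higher, Tgfbi and Tll1 lower), where 0.748% of all genes were called higher and 0.573% lower. In diaphragm over skin 0 passed, where 0.0337% of all genes were called higher and 0.00674% lower. At an unadjusted p under 0.05 there were 10 of the 54 in meninges over diaphragm (10.1% of all genes), 17 in meninges over skin (13.8%) and 12 in diaphragm over skin (11.8%). In the same order DESeq2 called 9, 12 and 4 (4.25%, 7.5% and 5.5% of all genes) and voom 4, 4 and 0 (1.35%, 2.79% and 0.00674%). The median log2 difference over the 54 genes was 0.11, 0.59 and 0.04 in the 3 comparisons, against 0.05, 0.08 and 0.01 over all genes.

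Thbs1 encodes thrombospondin 1, which can activate latent TGF-beta. Thbs1 measured 885, 1130 and 1593 CPM in meninges, 189, 144 and 91.1 CPM in diaphragm, and 67.0, 69.7 and 175 CPM in skin. Every meninges library was above every other library. It was higher in meninges by a log2 difference of 3.09 (SE 0.46, adjusted p = 0.0097 in edgeR) over diaphragm and 3.53 (SE 0.46, adjusted p = 0.00232 in edgeR) over skin. Both calls held in the 9 fits that left out a library, and with meninges replicate 1 alone Thbs1 passed over skin (adjusted p = 0.0124 in edgeR) but not over diaphragm (adjusted p = 0.102 in edgeR). Over all alternatives its adjusted p ran between 2.33e-08 and 0.102 over diaphragm and between 3.95e-10 and 0.0124 over skin.

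Tgfbi, a matrix protein induced by TGF-beta, measured 43.5, 31.6 and 49.3 CPM in meninges, 169, 328 and 231 CPM in diaphragm, and 529, 413 and 738 CPM in skin. The tissues did not overlap and meninges was lowest. Tgfbi was lower in meninges by a log2 difference of -2.55 (SE 0.39, adjusted p = 0.013 in edgeR) over diaphragm and -3.75 (SE 0.41, adjusted p = 0.00118 in edgeR) over skin. The call over skin held in all 17 alternatives; the call over diaphragm was lost without meninges replicate 2, without meninges replicate 3 and with meninges replicate 1 alone.

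Ctgf, a matricellular protein that TGF-beta can induce, measured 172, 213 and 280 CPM in meninges, 15.2, 42.5 and 28.5 CPM in diaphragm, and 96.5, 109 and 130 CPM in skin. Again no tissues overlapped, with diaphragm lowest. Ctgf had a log2 difference of 2.95 (SE 0.49, adjusted p = 0.0216 in edgeR) in meninges over diaphragm and 0.98 (SE 0.46, adjusted p = 0.369 in edgeR) in meninges over skin. The call over diaphragm was lost without meninges replicate 2 or 3, without diaphragm replicate 1 or 3 and with meninges replicate 1 alone. Tll1, a tolloid-like protease that cleaves the BMP antagonist chordin, measured 22.2, 8.50 and 7.19 CPM in meninges, 115, 90.1 and 124 CPM in diaphragm, and 109, 52.6 and 170 CPM in skin. Meninges was below all other libraries, by a log2 difference of -3.13 (SE 0.65, adjusted p = 0.0311 in edgeR) in meninges over skin and -3.12 (SE 0.65, adjusted p = 0.072 in edgeR) in meninges over diaphragm. The Tll1 call over skin was lost without meninges replicate 2 or 3, without skin replicate 1 or 3, with meninges replicate 1 alone, under voom and in the fit of those 2 tissues only.

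**Figure D5:**
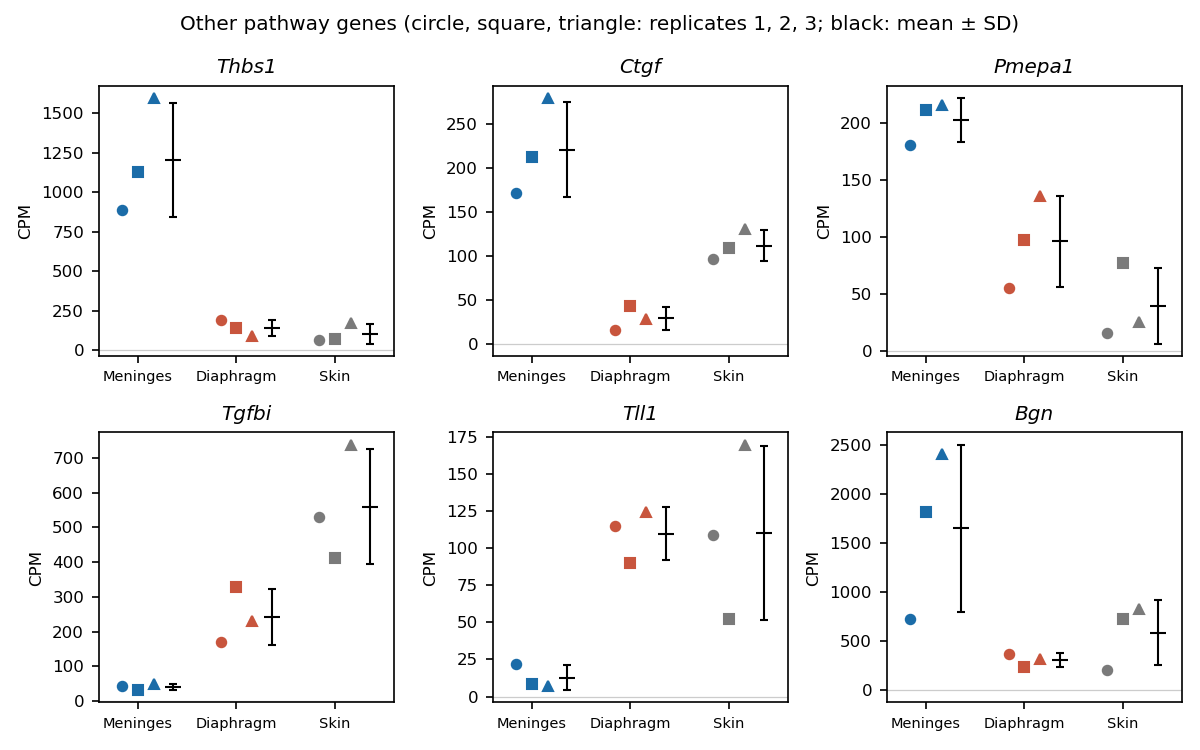
Levels in CPM on a linear axis of pathway genes outside the 49 members, per library, with circles, squares and triangles for replicates 1, 2 and 3 and black marks for the mean ± SD of 3 libraries. Thbs1 lies at 885 to 1593 CPM in meninges and at most 189 CPM elsewhere, and Tgfbi at 31.6 to 49.3 CPM in meninges and at least 169 CPM elsewhere.

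Further genes of the list did not pass the edgeR test. Among the targets, Pmepa1, a TGF-beta induced inhibitor of SMAD2 and SMAD3, averaged 203 ± 19.0 CPM in meninges, 96.3 ± 40.1 CPM in diaphragm and 39.6 ± 33.2 CPM in skin (SD, n = 3 each; log2 difference 2.36 in meninges over skin, adjusted p = 0.0802 in edgeR). Msx2, a BMP target and transcription factor of skull development, was read at 5.38, 43.1 and 16.7 CPM in meninges and at 0 in all other libraries (adjusted p 0.185 over diaphragm and 0.0943 over skin in edgeR). Id1, a direct target of SMAD1 and SMAD5, measured 14.9, 8.16 and 6.74 CPM in meninges, 41.9, 48.1 and 4.66 CPM in diaphragm, and 14.7, 12.0 and 0.0457 CPM in skin, with overlap of all tissues, as for Id3 (61.7 ± 50.8, 59.7 ± 21.7 and 42.4 ± 31.3 CPM in the same order). Id2 went otherwise: each meninges library lay above each diaphragm library, and skin overlapped both. Of the 54 tested genes of the list, 10 were higher in meninges than in diaphragm in this way, where 10.4% of all genes were.

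Among the modulators, Bgn (biglycan), a proteoglycan that binds TGF-beta, measured 727, 1823 and 2406 CPM in meninges, 367, 232 and 319 CPM in diaphragm, and 206, 724 and 830 CPM in skin (log2 difference 2.43 in meninges over diaphragm, adjusted p = 0.0736 in edgeR). Its high libraries were meninges replicates 2 and 3, those with the high fibroblast marker sums, whose part in the Bgn level was not tested. Rgmb, a BMP co-receptor, averaged 10.5 ± 7.62 CPM in meninges, 41.9 ± 15.9 CPM in diaphragm and 0.471 ± 0.269 CPM in skin (SD, n = 3 each; adjusted p = 0.117 in edgeR for diaphragm over skin). Chrdl2, a chordin-like BMP antagonist, averaged 8.52 ± 10.8 CPM in meninges, 45.9 ± 39.5 CPM in diaphragm and 0 in skin, and was at least 1090-fold higher in diaphragm than in skin (adjusted p = 0.152 in edgeR).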

How the data were processed

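Per the labels' protocols, the Arcturus PicoPure kit gave the RNA and the Ovation RNA-Seq System V2 amplified it. The authors deposited raw counts of reads for each Ensembl gene in each library; FastQC, STAR, HTSeq and the mouse build mm9 are named in the submitters' processing notes, with no versions or settings given in the sources used here. The table held 23018 genes: 15831 had a symbol, 7078 were named from their Ensembl ID, 22 symbols turned into dates were replaced, and 87 stayed unnamed. Every one of the 49 members carried its symbol in the table.

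Genes were filtered with filterByExpr, which left 14831, scaled by TMM, and tested with edgeR 4.0.16 (glmQLFit and glmQLFTest, R 4.3.3) on all 9 libraries with a mean per tissue and no covariate; the common biological coefficient of variation was 1.24. Calls were made at an adjusted p of 0.05 (Benjamini-Hochberg over all genes tested). The 17 alternatives were DESeq2 1.42.0, its size factors, limma 3.58.1 voom with quality weights, no filter, at least 50 counts in 3 libraries, only the 2 tissues compared, a replicate block, meninges replicate 1 alone, and each library left out. A group at 0 was set against 3 counts over its libraries, with the other group's counts pooled, and ratios on 1 to 3 counts were given no bound. Such a bound need not hold for each library. Exon lengths came from GENCODE M21. Tables were made with Python 3.11.15 and pandas 2.3.3, figures with matplotlib 3.10.9.

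Values per library were given for Eng, Acvrl1, Bmpr2, Tgfbr2, Smad6 and, in each role, the 2 members with the smallest p and the 2 with the highest level; further members were added after their values were seen. The members and the lists of other pathway genes and cell markers were chosen with earlier results of these data known.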

Additional observations from a re-analysis of the deposited data

How the results depend on the processing

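EdgeR called 0 members in each comparison. DESeq2 called 4 in meninges over diaphragm, 7 in meninges over skin and 6 in diaphragm over skin. Voom called 3, 2 and 0 in the same order. The shares of all genes were 4.25%, 7.5% and 5.5% for DESeq2 and 1.35%, 2.79% and 0.00674% for voom. Testing without a low-count filter called 4, 4 and 1 of 49 members, and 298, 610 and 305 of 23018 genes. Fitting only the 2 tissues compared called 1 of 39, 1 of 38 and 0 of 33 members. Over all genes that fit called 108 of 13708, 158 of 13597 and 1 of 12621. Leaving out 1 library at a time called 0 members in meninges over diaphragm and in diaphragm over skin. In meninges over skin it called 0 to 1 (Gdf10 without diaphragm replicate 1, Ltbp1 without skin replicate 1). In meninges over skin those fits called 236 of 16434 and 124 of 16485 genes. The cause of the differences between settings was not tested.

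Over all genes, 51 were called in meninges over diaphragm, 196 in meninges over skin and 6 in diaphragm over skin. In the same order, DESeq2 called 631, 1112 and 815, voom 200, 414 and 1, no filter 298, 610 and 305, and the fit of the 2 tissues 108, 158 and 1. At least 50 counts in 3 libraries gave 13 in diaphragm over skin, and meninges replicate 1 alone gave 11 over diaphragm and 58 over skin. Leaving out 1 library gave 19 to 105, 74 to 236 and 2 to 58 genes. Pairing by replicate number was not seen: deviations of same-numbered libraries correlated between -0.0205 and 0.0512, and those of differently numbered libraries between -0.0565 and 0.0393. With 3 libraries per tissue these values cannot settle whether libraries were paired. With the replicate number as a block, 2 of 41 members (Gdf10 and Ltbp1) were called in meninges over skin and 0 in the other comparisons. Of 14831 genes that fit called 70 in meninges over diaphragm, 231 in meninges over skin and 16 in diaphragm over skin.

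At 26075366 counts or more per library, a member at 0 in all libraries of a tissue was not detectable below 0.0295 to 0.0415 CPM. The spread between libraries was wide: the median standard error of a member was 0.76 on the log2 scale.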
